A study of Homo sapiens with 8 samples.

Results

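The integrated stress response was followed here through 37 genes in MCF10A breast epithelial cells exposed to ginkgolic acid. The genes were chosen by name as eIF2 kinases with their substrate, ATF4 and CHOP with their targets, and each has a row of its own in both deposited tables, among 42149 usable genes for the NOTCH1-labelled line and 42119 for MCF10A. The choice was made with earlier results of these data known. Rows were found by gene symbol alone. Of the 37, 33 reached 1 FPKM (fragments per kilobase of transcript, scaled to the mapped fragments) in at least 1 group of each table. FGF21, ADM2, INHBE and VLDLR stayed under 1 FPKM in all 4 groups.

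In the integrated stress response, 4 kinases that sense different forms of stress phosphorylate the alpha subunit of translation factor eIF2. Bulk protein synthesis then drops, while the mRNA of the transcription factor ATF4 is translated more. ATF4, with its partner C/EBP proteins, switches on genes of amino acid synthesis, transport and tRNA charging, as well as CHOP, a factor linked to cell death under prolonged stress. A phosphatase subunit induced by the same route closes the loop by dephosphorylating eIF2. ATF4 and the kinases are controlled largely at the level of protein, which mRNA levels do not show.

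Total RNA was sequenced from 8 samples in 4 groups of 2. NOTCH1-labelled cells, MCF10A cells that per the labels overexpress the intracellular domain of NOTCH1, received 30 µM ginkgolic acid or DMSO for 3 days, and MCF10A cells received the same 2 treatments. MCF10A is a non-tumorigenic human mammary epithelial line, ginkgolic acid is an inhibitor of SUMO conjugation, and DMSO is its solvent. All groups grew in the same medium with horse serum, insulin, cholera toxin, epidermal growth factor and hydrocortisone. Whether the NOTCH1-labelled line is 1 clone, and which promoter drives its transgene, is not stated in the labels.

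Each table holds a single FPKM per gene and treatment group. The spread between the 2 samples of a group is therefore unknown, as is depth, and differences are described without a test. A gene is called higher or lower where its groups are at least 2-fold apart, an absolute log2 ratio of 1. Whether the tables were normalized together is not stated, so levels set across them may carry an unknown factor. Mammary epithelial markers with a row of their own, 11 of 12 in the NOTCH1-labelled and 9 of 12 in the MCF10A table, were all at 1 FPKM or more. At least 2-fold higher with ginkgolic acid were 4 of these in NOTCH1-labelled and 2 in MCF10A cells, and 0 in NOTCH1-labelled and 3 in MCF10A cells were lower. Over all measured genes, 18.9% were higher and 18.9% lower in NOTCH1-labelled cells, and 24.4% higher and 15.2% lower in MCF10A. KRT18 and EPCAM were higher in both lines, with log2 ratios of 1.61 and 1.28 in NOTCH1-labelled and 1.14 and 1.42 in MCF10A cells. The lower markers in MCF10A were the basal marker genes KRT14 and TP63 and the cadherin gene CDH1 (-1.94, -1.27 and -1.30). Joined rows that hold KRT5 with KRT6A and JUP with KRT17 were lower there too (-1.82 and -2.10). The part of these marker values in the results below was not tested. The 16 markers of other cell types, 15 of them listed and 0 at 0, summed to 70.6 (ginkgolic acid) and 108 FPKM (DMSO) in NOTCH1-labelled and to 50.6 (ginkgolic acid) and 62.2 FPKM (DMSO) in MCF10A cells. Beside the same shares of all genes, 1 of 11 measured ones was at least 2-fold higher and 3 were lower in NOTCH1-labelled cells. In MCF10A, 4 of the 12 measured ones were higher and 1 was lower. The highest of them, chosen after their values were seen, were the fibroblast gene DCN, at 31.8 (ginkgolic acid) and 63.4 FPKM (DMSO) in NOTCH1-labelled and at 9.11 (ginkgolic acid) and 18.0 FPKM (DMSO) in MCF10A cells, and the melanocyte gene PMEL, between 10.1 and 13.9 FPKM. Genes of other cell types thus reached up to 63.4 FPKM, a range that also holds members such as TRIB3, SESN2, EIF2AK3 and PSAT1. NOTCH1 itself was at 12.4 FPKM with ginkgolic acid and 5.03 FPKM with DMSO in NOTCH1-labelled cells, against 6.18 (ginkgolic acid) and 11.4 FPKM (DMSO) in MCF10A. Its DMSO values go against the label.

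Most measured stress response genes were higher with ginkgolic acid in each line. Those that were not included 5 of 11 amino acid and one-carbon enzymes in each line, and, of the 4 kinase and substrate genes, 3 in NOTCH1-labelled and 4 in MCF10A cells. In NOTCH1-labelled cells, 24 of 33 measured members were higher by the 2-fold rule and 0 were lower, where 18.9% of all 19520 measured genes were higher and 18.9% lower. In MCF10A cells, 20 of 33 were higher by that rule and 2 were lower, where 24.4% of 17663 genes were higher and 15.2% lower. The median log2 ratio of the members was 1.61 in NOTCH1-labelled cells and 1.15 in MCF10A cells, beside 0.06 and 0.07 over all measured genes. When 5 FPKM was required in one of the groups, 24 of 30 members were higher in NOTCH1-labelled cells, where 19.6% of 9838 genes were higher and 9.34% lower. At that minimum 18 of 30 members were higher in MCF10A, where 12.4% of 9393 genes were higher and 16.7% lower. GDF15, TRIB3, SESN2, PCK2 and CHAC1 met it with ginkgolic acid alone in NOTCH1-labelled cells. TRIB3, PHGDH, PCK2, CTH and SESN2 did so in MCF10A. The counts at 5 FPKM thus include members that passed only through the group where they were high. In each line 1 member, CHAC1, reached 1 FPKM with ginkgolic acid alone, and ATF5 did so with DMSO alone in NOTCH1-labelled cells. With a pseudocount of 1 FPKM, CHAC1, PCK2, SESN2 and CBS came under 2-fold in MCF10A (log2 ratios of 0.99, 0.95, 0.90 and 0.84), and with the median gene removed CEBPG did so in NOTCH1-labelled cells (0.96).

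Most of the higher members were shared by the lines. At least 2-fold higher in both were 18 of 33 members, where 5.16% of 15495 genes measured in both tables were. A further 6 were higher in NOTCH1-labelled cells but not in MCF10A (EIF2AK3, CEBPG, JDP2, PPP1R15B, PSAT1 and ALDH1L2), and CTH and CBS were higher in MCF10A but not in NOTCH1-labelled cells. Across the 33 members the log2 ratios of the lines had a Pearson r of 0.80 and a Spearman rho of 0.75, beside 0.11 and 0.12 over the 15495 genes. For genes with at least 5 FPKM, r was 0.86 over 29 members and 0.38 over 8705 genes. These correlations run across genes of the same libraries, which are not independent replicates, and low genes enter them with large ratios.

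**Figure D1:**
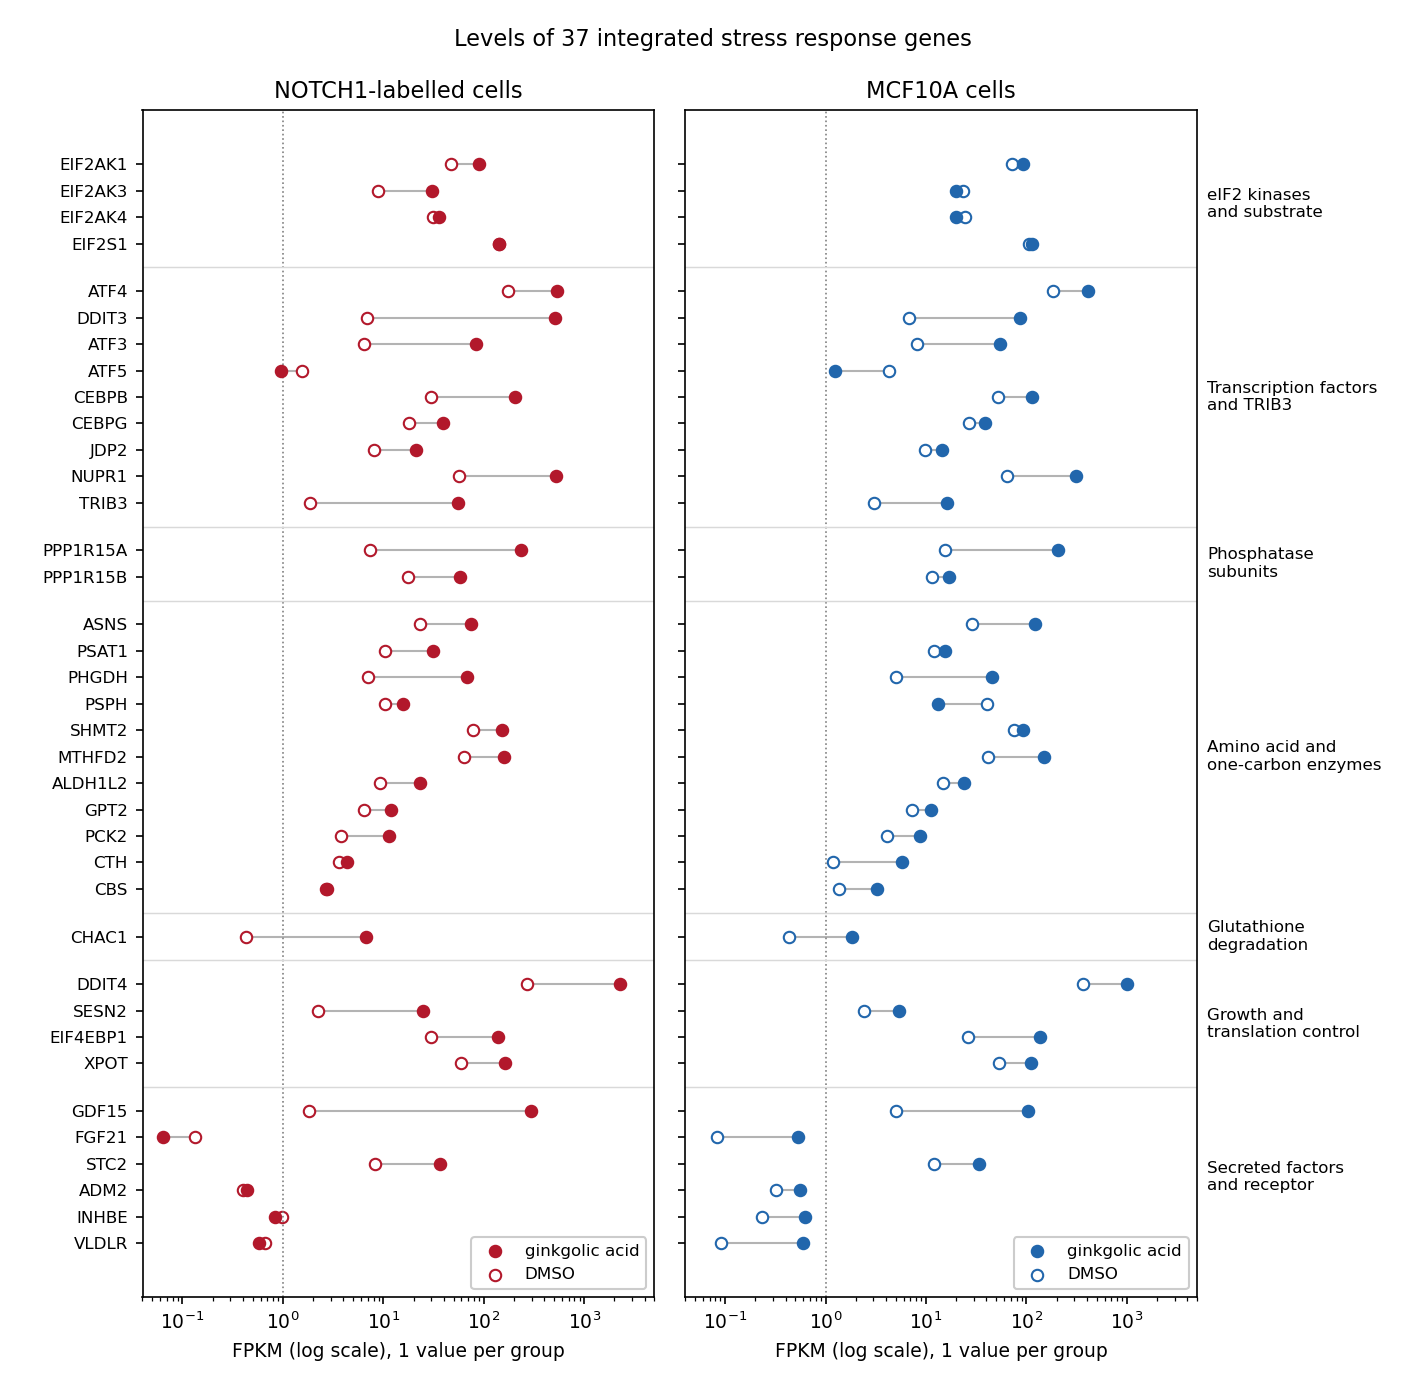
FPKM (log scale) of each of the 37 genes, by role, in NOTCH1-labelled cells (left) and MCF10A cells (right), with ginkgolic acid (filled) and DMSO (open), 1 value per group, and a dotted line at 1 FPKM. DDIT4 is highest in every group, DDIT3 lies at 515 FPKM (ginkgolic acid) and 6.82 FPKM (DMSO) on the left, and the lowest genes stay left of the dotted line.

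ATF4 binds composite elements shared with C/EBP proteins, and such a core, TGATGNAA, was searched on both strands of the RefSeq promoters (250 bases before to 50 after a start, GRCh38.p14). Of the 37 members 29 had an entry, 43 promoters in all, and 7 of these 43 (16.3%) held the core, as did 1270 of all 35116 promoters (3.62%). They belong to ATF3, CHAC1, ASNS, PPP1R15B, JDP2, CEBPG and FGF21. The cyclic AMP response element TGACGTCA, which reads alike on both strands, was in 1 member promoter, that of PPP1R15A, and in 1.85% of all promoters. The related word TGACGTGG was in 0 member promoters and in 0.73% of all. The endoplasmic reticulum stress element, CCAAT and CCACG with 9 bases between them, was in 0 member promoters and in 0.08% of all. No match to one of these words overlapped another in a member promoter. A match describes the letters in this window and is not a binding site.

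The promoters of the 4 core-holding members with the highest mean ratio over both lines are shown for the core they share. ATF3, CHAC1 and ASNS were at least 2-fold higher in both lines and PPP1R15B in NOTCH1-labelled cells alone. The promoter of PPP1R15A, chosen after its values were seen, is added for its cyclic AMP response element. They lie at chr1:212565157-212565456 (plus strand, 1 of 2 entries for ATF3), chr15:40953221-40953520 (plus), chr7:97872359-97872658 (minus, 1 of 2 entries), chr1:204411768-204412067 (minus) and chr19:48872171-48872470 (plus) on GRCh38.p14. Capitals mark the TGATGNAA match, or TGACGTCA in PPP1R15A, and each run reads along the strand of its gene. The match begins 191 bases before the start in ATF3, 68 in ASNS, 227 in PPP1R15B and 58 in PPP1R15A, and in CHAC1 it lies on the other strand, 209 bases before the start. The match in ASNS belongs to the nutrient-sensing element known from work on that gene. These positions are on another build than the deposited tables and are not to be set beside the hg19 positions below.
ATF3: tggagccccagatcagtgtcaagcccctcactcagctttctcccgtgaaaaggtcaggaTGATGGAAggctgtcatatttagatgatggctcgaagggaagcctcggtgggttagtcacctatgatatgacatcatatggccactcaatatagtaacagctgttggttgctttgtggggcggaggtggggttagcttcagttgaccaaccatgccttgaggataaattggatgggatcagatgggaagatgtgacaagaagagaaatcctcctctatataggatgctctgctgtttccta
CHAC1: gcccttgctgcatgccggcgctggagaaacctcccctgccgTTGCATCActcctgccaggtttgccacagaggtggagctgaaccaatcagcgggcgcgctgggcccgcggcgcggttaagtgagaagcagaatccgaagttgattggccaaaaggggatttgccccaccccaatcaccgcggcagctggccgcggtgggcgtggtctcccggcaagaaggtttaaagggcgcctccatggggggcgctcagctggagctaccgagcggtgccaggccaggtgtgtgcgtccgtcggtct
ASNS: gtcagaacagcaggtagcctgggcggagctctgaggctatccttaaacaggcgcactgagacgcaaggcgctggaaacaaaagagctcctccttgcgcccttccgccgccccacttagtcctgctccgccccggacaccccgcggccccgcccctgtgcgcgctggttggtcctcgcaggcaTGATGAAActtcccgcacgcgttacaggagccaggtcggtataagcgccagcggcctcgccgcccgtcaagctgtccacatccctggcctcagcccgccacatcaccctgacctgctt
PPP1R15B: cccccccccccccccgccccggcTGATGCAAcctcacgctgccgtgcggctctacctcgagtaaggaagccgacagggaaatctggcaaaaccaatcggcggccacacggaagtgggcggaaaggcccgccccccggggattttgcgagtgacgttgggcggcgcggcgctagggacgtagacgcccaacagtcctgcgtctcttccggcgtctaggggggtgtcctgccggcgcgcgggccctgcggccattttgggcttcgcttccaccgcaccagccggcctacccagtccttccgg
PPP1R15A: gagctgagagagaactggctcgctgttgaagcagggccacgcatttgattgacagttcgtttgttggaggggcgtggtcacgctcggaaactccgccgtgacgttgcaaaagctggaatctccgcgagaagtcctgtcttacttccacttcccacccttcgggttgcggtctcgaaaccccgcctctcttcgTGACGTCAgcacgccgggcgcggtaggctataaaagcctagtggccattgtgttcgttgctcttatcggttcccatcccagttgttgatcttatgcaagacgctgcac

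The kinases and their substrate had ratios closer to 1 than most of the genes downstream of them. EIF2AK3, the kinase PERK of the endoplasmic reticulum, was at 30.7 FPKM with ginkgolic acid and 8.75 FPKM with DMSO in NOTCH1-labelled cells, and at 19.8 (ginkgolic acid) and 23.3 FPKM (DMSO) in MCF10A. Among these 4 genes only EIF2AK3 reached 2-fold, in NOTCH1-labelled cells alone. EIF2AK1, the heme-regulated kinase HRI, was at 90.7 (ginkgolic acid) and 46.8 FPKM (DMSO) in NOTCH1-labelled and at 91.7 (ginkgolic acid) and 72.5 FPKM (DMSO) in MCF10A cells. It holds the small RNAs RN7SL851P and RNU6-218P, whose share of its reads was not tested. EIF2AK4, the kinase GCN2 that senses uncharged tRNA, was at 36.0 (ginkgolic acid) and 31.3 FPKM (DMSO) in NOTCH1-labelled and at 20.1 (ginkgolic acid) and 24.7 FPKM (DMSO) in MCF10A cells. EIF2S1, which encodes eIF2 alpha itself, was at 143.0 (ginkgolic acid) and 142.3 FPKM (DMSO) in NOTCH1-labelled and at 114 (ginkgolic acid) and 106 FPKM (DMSO) in MCF10A cells, the flattest profile of the group. The fourth kinase gene, EIF2AK2 (PKR, activated by double-stranded RNA), is not a member and was within 2-fold in both lines, at 39.7 (ginkgolic acid) and 34.7 FPKM (DMSO) in NOTCH1-labelled and at 20.1 (ginkgolic acid) and 24.6 FPKM (DMSO) in MCF10A cells.

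Among the transcription factors, DDIT3 had the widest range. DDIT3 encodes CHOP and had 515 FPKM with ginkgolic acid and 6.82 FPKM with DMSO in NOTCH1-labelled cells, and 86.5 (ginkgolic acid) and 6.85 FPKM (DMSO) in MCF10A cells. Its DMSO levels in the lines were nearly equal, and its ratio was 75.6-fold in NOTCH1-labelled and 12.6-fold in MCF10A cells, rank 5 of 14392 and rank 12 of 13025 genes that reached 1 FPKM in both treatments. By level DDIT3 held place 4 among the 37 members with ginkgolic acid and place 23 with DMSO in NOTCH1-labelled cells. The deposited locus of DDIT3 (chromosome 12, 57853918 to 57914300, hg19) is 11.7 times as long as the gene, which holds the microRNA MIR616 and overlaps MARS and MBD6 on the opposite strand. DDIT3 also overlaps the protein-coding gene AC022506.1 on its own strand, which has no usable value. The row of MARS carries the same deposited locus as that of DDIT3. MARS, a tRNA synthetase gene, was at 156 (ginkgolic acid) and 67.5 FPKM (DMSO) in NOTCH1-labelled and at 77.7 (ginkgolic acid) and 107 FPKM (DMSO) in MCF10A cells, so its ratio was above 1 in NOTCH1-labelled and below 1 in MCF10A cells. How reads were divided between these genes was not tested. Deposited loci over 1.5 times the gene length were also found for ATF5, PPP1R15B, MTHFD2, VLDLR, EIF2S1, PCK2, SHMT2 and ALDH1L2, and 15 members overlap another annotated gene.

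ATF4 was the second highest member in all 4 groups. Its mRNA was at 532 FPKM with ginkgolic acid and 175 FPKM with DMSO in NOTCH1-labelled cells, and at 410 (ginkgolic acid) and 184 FPKM (DMSO) in MCF10A cells, which is 3.05-fold higher in NOTCH1-labelled and 2.23-fold higher in MCF10A cells (chromosome 22, 39915700 to 39918691, hg19). Its pseudogenes ATF4P3 and ATF4P4 were at most at 1.74 FPKM. ATF3, a repressor of the same bZIP family whose promoter is shown above, was at 83.0 (ginkgolic acid) and 6.35 FPKM (DMSO) in NOTCH1-labelled and at 55.0 (ginkgolic acid) and 8.22 FPKM (DMSO) in MCF10A cells. NUPR1, a small chromatin protein induced by stress, was at 527 (ginkgolic acid) and 57.1 FPKM (DMSO) in NOTCH1-labelled and at 310 (ginkgolic acid) and 63.9 FPKM (DMSO) in MCF10A cells. TRIB3, a pseudokinase that restrains ATF4 and CHOP, was at 55.3 (ginkgolic acid) and 1.86 FPKM (DMSO) in NOTCH1-labelled and at 16.2 (ginkgolic acid) and 3.04 FPKM (DMSO) in MCF10A cells. All of these were at least 4-fold higher in both lines, apart from ATF4 itself.

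CEBPB, which pairs with both ATF4 and CHOP, reached 203 FPKM with ginkgolic acid and 29.5 FPKM with DMSO in NOTCH1-labelled cells and 114 (ginkgolic acid) and 51.8 FPKM (DMSO) in MCF10A cells. CEBPG, another dimer partner of ATF4, was at 39.0 (ginkgolic acid) and 18.1 FPKM (DMSO) in NOTCH1-labelled and at 38.5 (ginkgolic acid) and 26.7 FPKM (DMSO) in MCF10A cells. JDP2, a repressor that dimerises with AP-1 proteins, was at 21.0 (ginkgolic acid) and 8.01 FPKM (DMSO) in NOTCH1-labelled and at 14.4 (ginkgolic acid) and 9.87 FPKM (DMSO) in MCF10A cells. CEBPG and JDP2 thus passed 2-fold in NOTCH1-labelled cells and had log2 ratios of 0.53 and 0.55 in MCF10A. ATF5, a factor whose translation is controlled like that of ATF4, ran the other way, at 0.957 (ginkgolic acid) and 1.57 FPKM (DMSO) in NOTCH1-labelled and at 1.24 (ginkgolic acid) and 4.33 FPKM (DMSO) in MCF10A cells. It was 3.48-fold lower in MCF10A, holds MIR4751, has a deposited locus 13.7 times the length of its gene, and lies at levels seen for markers of other cell types.

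The subunits that direct protein phosphatase 1 to eIF2 alpha were both higher in NOTCH1-labelled cells. PPP1R15A (GADD34), the inducible one, was at 237 FPKM with ginkgolic acid and 7.38 FPKM with DMSO in NOTCH1-labelled cells and at 206 (ginkgolic acid) and 15.4 FPKM (DMSO) in MCF10A cells (chromosome 19, 49375649 to 49379318, hg19). That is 32.1-fold in NOTCH1-labelled and 13.4-fold in MCF10A cells. With ginkgolic acid the lines were close, and the larger ratio in NOTCH1-labelled cells went with a lower DMSO level. PPP1R15B (CReP), the constitutive one, was at 57.9 (ginkgolic acid) and 17.5 FPKM (DMSO) in NOTCH1-labelled and at 17.0 (ginkgolic acid) and 11.6 FPKM (DMSO) in MCF10A cells, and its deposited locus is 13.9 times as long as the gene.

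The enzymes of amino acid and mitochondrial one-carbon metabolism divided. Of 11 genes, 6 were at least 2-fold higher in NOTCH1-labelled cells and 6 in MCF10A cells, with medians of 1.31 and 1.11, and 1, PSPH, was at least 2-fold lower in MCF10A. Over all measured genes, as above, 18.9% were higher in NOTCH1-labelled and 24.4% in MCF10A cells. PHGDH, the entry enzyme of serine synthesis, was at 68.6 FPKM with ginkgolic acid and 6.97 FPKM with DMSO in NOTCH1-labelled cells and at 45.1 (ginkgolic acid) and 4.99 FPKM (DMSO) in MCF10A cells. Its ratios, 9.84-fold in NOTCH1-labelled and 9.04-fold in MCF10A cells, were nearly alike. PSAT1, of the next step, was at 31.3 (ginkgolic acid) and 10.5 FPKM (DMSO) in NOTCH1-labelled and at 15.6 (ginkgolic acid) and 12.1 FPKM (DMSO) in MCF10A cells. PSPH, of the final step, was at 15.7 (ginkgolic acid) and 10.4 FPKM (DMSO) in NOTCH1-labelled and at 13.3 (ginkgolic acid) and 40.1 FPKM (DMSO) in MCF10A cells. In MCF10A the 3 enzymes of this short pathway thus had ratios above 2-fold, under 2-fold and below 1.

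Asparagine synthetase, ASNS, was at 75.0 FPKM with ginkgolic acid and 22.95 FPKM with DMSO in NOTCH1-labelled cells and at 121 (ginkgolic acid) and 29.02 FPKM (DMSO) in MCF10A cells (chromosome 7, 97481430 to 97501854, hg19). An annotated transcript on the same strand, AC079781.5, was at 67.2 (ginkgolic acid) and 22.2 FPKM (DMSO) in NOTCH1-labelled cells and at 176 FPKM (ginkgolic acid) and listed at 0 (DMSO) in MCF10A cells, so the division of reads between it and ASNS is uncertain. MTHFD2, a mitochondrial folate enzyme, was at 157 (ginkgolic acid) and 62.9 FPKM (DMSO) in NOTCH1-labelled and at 151 (ginkgolic acid) and 41.9 FPKM (DMSO) in MCF10A cells. SHMT2, which feeds serine carbon into that route, was at 153 (ginkgolic acid) and 79.0 FPKM (DMSO) in NOTCH1-labelled and at 91.9 (ginkgolic acid) and 75.4 FPKM (DMSO) in MCF10A cells, under 2-fold in both lines. NDUFA4L2, which overlaps SHMT2 on the opposite strand, was at 0.744 (ginkgolic acid) and 29.5 FPKM (DMSO) in NOTCH1-labelled and at 2.47 (ginkgolic acid) and 3.97 FPKM (DMSO) in MCF10A cells. ALDH1L2, a mitochondrial formyltetrahydrofolate dehydrogenase, was at 23.1 (ginkgolic acid) and 9.28 FPKM (DMSO) in NOTCH1-labelled and at 24.0 (ginkgolic acid) and 14.6 FPKM (DMSO) in MCF10A cells.

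PCK2, the mitochondrial form of phosphoenolpyruvate carboxykinase, was at 11.5 FPKM with ginkgolic acid and 3.83 FPKM with DMSO in NOTCH1-labelled cells and at 8.77 (ginkgolic acid) and 4.05 FPKM (DMSO) in MCF10A cells. GPT2, mitochondrial alanine transaminase, was at 12.0 (ginkgolic acid) and 6.49 FPKM (DMSO) in NOTCH1-labelled and at 11.1 (ginkgolic acid) and 7.34 FPKM (DMSO) in MCF10A cells, under 2-fold in both lines. CTH and CBS, the enzymes that turn homocysteine into cysteine, were at least 2-fold higher in MCF10A only. CTH was at 4.37 (ginkgolic acid) and 3.59 FPKM (DMSO) in NOTCH1-labelled and at 5.81 (ginkgolic acid) and 1.18 FPKM (DMSO) in MCF10A cells. It holds the small RNA RF00017, whose share of its reads was not tested. CBS was at 2.74 (ginkgolic acid) and 2.70 FPKM (DMSO) in NOTCH1-labelled and at 3.25 (ginkgolic acid) and 1.37 FPKM (DMSO) in MCF10A cells. Both lie at levels seen for markers of other cell types, and the difference between the lines was not tested. CHAC1, which degrades glutathione and carries the core in its promoter, was at 6.77 (ginkgolic acid) and 0.426 FPKM (DMSO) in NOTCH1-labelled and at 1.84 (ginkgolic acid) and 0.429 FPKM (DMSO) in MCF10A cells.

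All 4 genes of growth and translation control were at least 2-fold higher in both lines, where 5.16% of 15495 genes were. DDIT4 (REDD1), an inhibitor of the growth kinase mTORC1, was the highest member in every group, at 2276 FPKM with ginkgolic acid and 270.2 FPKM with DMSO in NOTCH1-labelled cells and at 998 (ginkgolic acid) and 364 FPKM (DMSO) in MCF10A cells. SESN2, a leucine sensor that also inhibits mTORC1, was at 24.9 (ginkgolic acid) and 2.21 FPKM (DMSO) in NOTCH1-labelled and at 5.41 (ginkgolic acid) and 2.44 FPKM (DMSO) in MCF10A cells. With a pseudocount of 1 FPKM its log2 ratio in MCF10A was 0.90, under 2-fold. EIF4EBP1, which holds back cap-dependent translation, was at 137.6 (ginkgolic acid) and 29.6 FPKM (DMSO) in NOTCH1-labelled and at 137.8 (ginkgolic acid) and 26.2 FPKM (DMSO) in MCF10A cells, almost the same profile in both lines. XPOT, which exports tRNA from the nucleus, was at 161 (ginkgolic acid) and 59.4 FPKM (DMSO) in NOTCH1-labelled and at 111 (ginkgolic acid) and 54.0 FPKM (DMSO) in MCF10A cells.

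Of the secreted factors, GDF15 had the highest ratio of all members in both lines. This stress cytokine, also a p53 target, was at 292 FPKM with ginkgolic acid and 1.82 FPKM with DMSO in NOTCH1-labelled cells and at 103 (ginkgolic acid) and 5.04 FPKM (DMSO) in MCF10A cells. The ratios, 160-fold in NOTCH1-labelled and 20.4-fold in MCF10A cells, ranked 2 of those 14392 and 6 of those 13025 genes (chromosome 19, 18496968 to 18499986, hg19). GDF15 holds MIR3189, and the share of its reads that comes from that microRNA was not tested. STC2, a secreted glycoprotein, was at 36.3 (ginkgolic acid) and 8.28 FPKM (DMSO) in NOTCH1-labelled and at 33.6 (ginkgolic acid) and 12.1 FPKM (DMSO) in MCF10A cells. The hormone genes FGF21, ADM2 and INHBE and the lipoprotein receptor gene VLDLR, all described as targets of ATF4 or of the PERK route, lay between 0.065 and 0.984 FPKM over the 4 groups, and their ratios are not read.

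**Figure D2:**
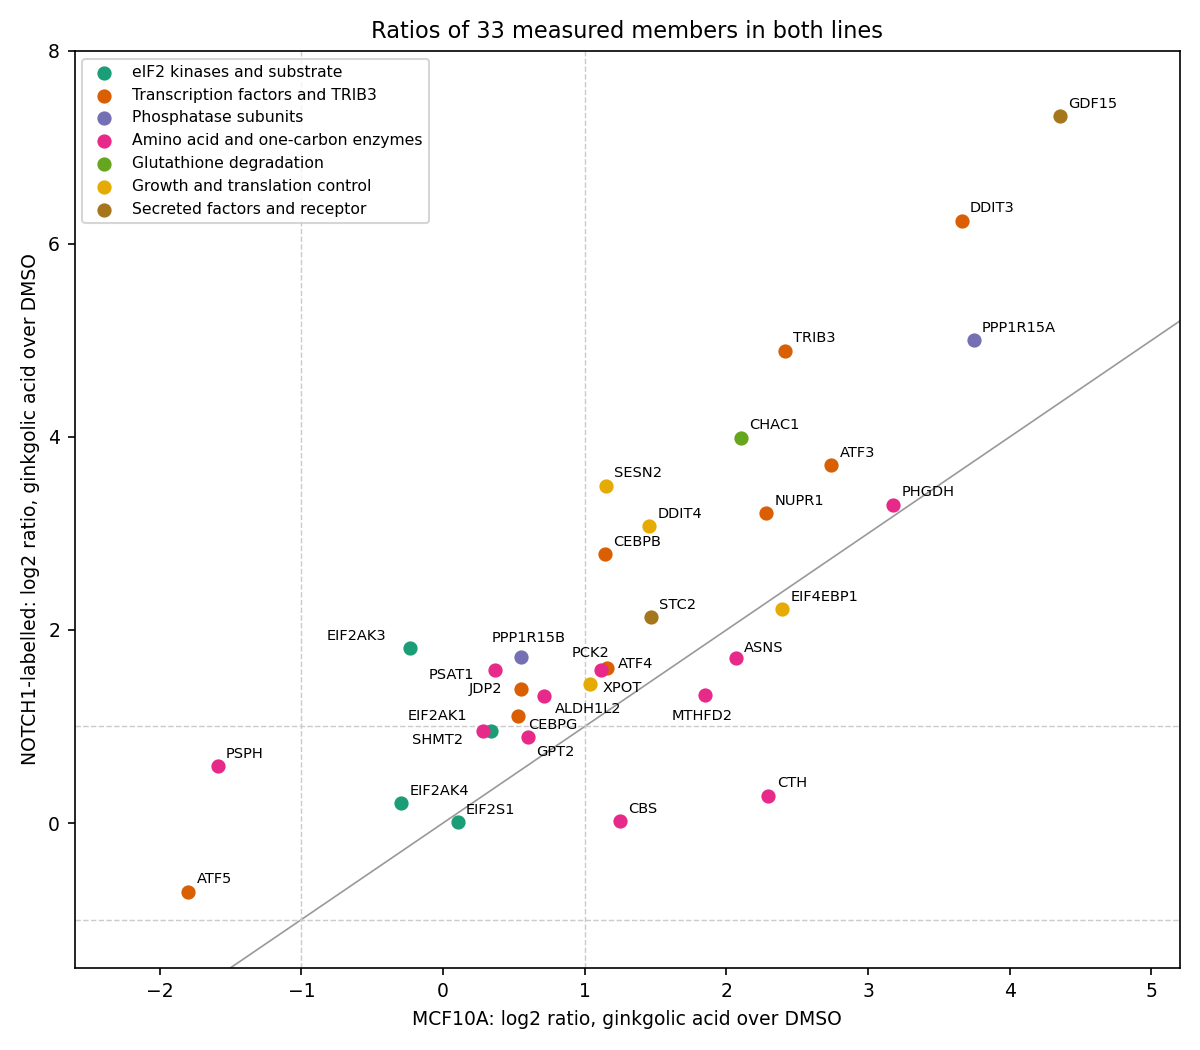
Log2 ratio of ginkgolic acid over DMSO in NOTCH1-labelled cells (vertical) against that in MCF10A cells (horizontal) for the 33 measured members, coloured by role, with the line of equal ratios and dashed lines at 2-fold. Of the 33 points 27 lie above the line of equal ratios, GDF15 is farthest up, and CTH and CBS lie to the right and below. Of all 15495 genes measured in both tables, which are not shown, 8884 would lie above that line.

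The responses of the lines were set against each other as the log2 ratio in NOTCH1-labelled cells minus that in MCF10A. The difference was above 0 for 27 of 33 members, where it was for 8884 of 15495 genes. The members' median was 0.67, beside 0.22 over those genes. The sign was not particular to the members. The difference was above 0 for 62 of 75 measured genes of the neighbouring lists read below (median 0.51). Among mammary epithelial markers it was above 0 for 8 of 9 (median 0.91). With the median gene of each table removed, the members' median was 0.42 and 10 members had a difference of at least 1. As deposited, the difference was at least 1 for 13 members, where 21.6% of all genes were, and at most -1 for 2, where 22.5% of all genes were. The differences at the top were 2.97 for GDF15, 2.58 for DDIT3, 2.48 for TRIB3, 2.34 for SESN2 and 2.18 for PSPH. At the other end were CTH with -2.01 and CBS with -1.23. ATF4 had a difference of 0.45, PHGDH of 0.12, EIF4EBP1 of -0.18 and ASNS of -0.36. The difference of PHGDH turns to -0.13 when the median gene of each table is removed, and that of PSAT1, PPP1R15B and ATF5 then comes to 0.96, 0.93 and 0.84. With a pseudocount of 1 FPKM the difference is 0.86 for ATF5 and -0.83 for CBS.

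A difference of responses can arise on either side, so the levels of the lines were set side by side within each treatment. With ginkgolic acid, 8 of 33 members were at least 2-fold higher in NOTCH1-labelled than in MCF10A cells and 0 were at least 2-fold lower, where 15.4% of all genes were higher and 9.89% lower. With DMSO, CTH alone was at least 2-fold higher, and 5 (PSPH, GDF15, ATF5, EIF2AK3 and PPP1R15A) were at least 2-fold lower in NOTCH1-labelled cells, where 19.9% of all genes were higher and 8.82% lower. The median log2 ratio of members was 0.54 with ginkgolic acid and -0.18 with DMSO, beside 0.27 and 0.12 for all genes. Of the 13 members with a difference of at least 1, 9 had the larger side with ginkgolic acid and 4 with DMSO. DDIT3, CHAC1 and SESN2 had DMSO levels close to each other in the lines (log2 ratios of -0.01, -0.01 and -0.14). With ginkgolic acid they were 5.95-fold, 3.68-fold and 4.61-fold higher in NOTCH1-labelled cells. The DMSO values of CHAC1 were under 1 FPKM in both lines, 0.426 in NOTCH1-labelled and 0.429 FPKM in MCF10A cells. For PSPH, PPP1R15A, EIF2AK3 and ATF5 the DMSO side was the larger one, with log2 ratios between the lines of -1.94, -1.06, -1.42 and -1.47. GDF15 had nearly equal sides, 1.51 with ginkgolic acid and -1.47 with DMSO, as had CEBPB, 0.83 with ginkgolic acid and -0.81 with DMSO. Both are counted on the ginkgolic acid side, and an unknown factor between tables that may have been normalized separately would bear on such near ties.

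**Figure D3:**
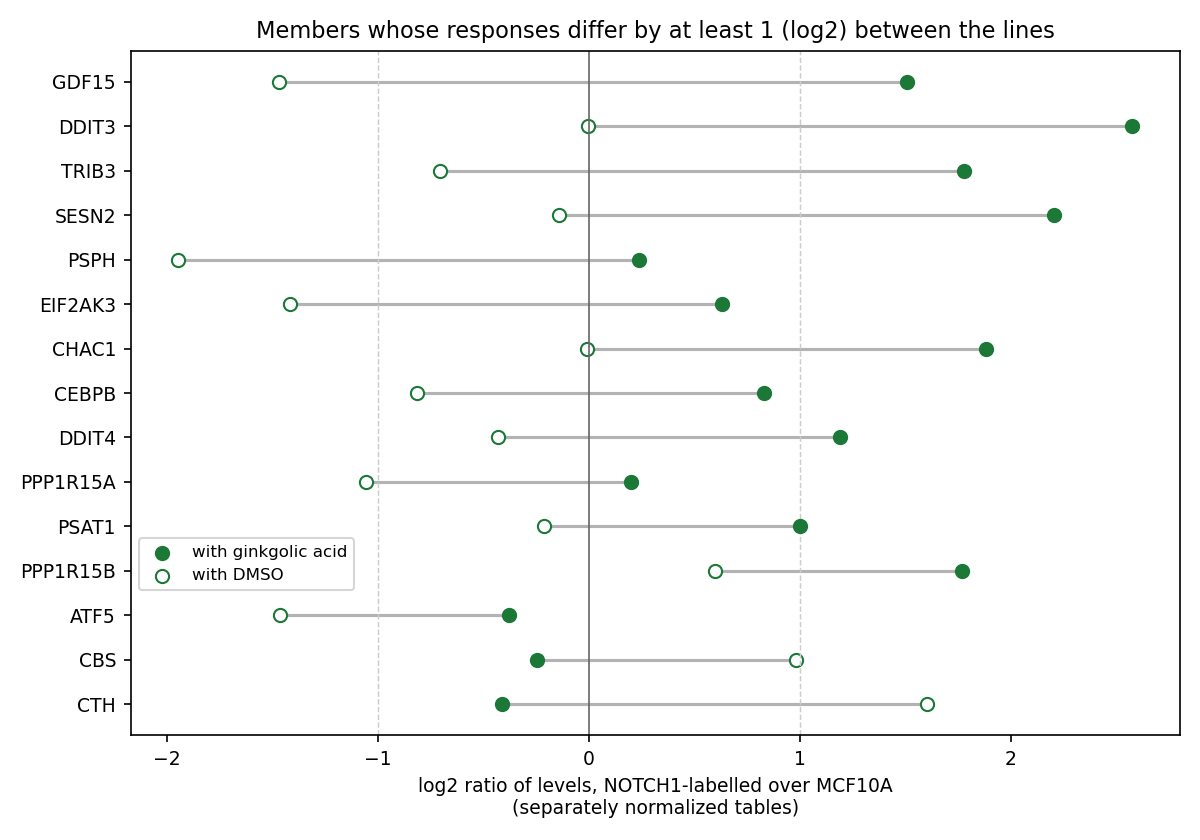
Log2 ratio of NOTCH1-labelled over MCF10A levels with ginkgolic acid (filled) and with DMSO (open) for the 15 members whose responses differ by at least 1 on the log2 scale. The axis label takes the tables as separately normalized, which may be so but is not stated. DDIT3, SESN2 and CHAC1 have open points near 0 and filled points at 2.57, 2.20 and 1.88, whereas PSPH has its open point at -1.94. CHAC1 was under 1 FPKM with DMSO in both lines.

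Genes around the response were read from 8 further lists, whose counts stand beside the 18.9% of all measured genes that were higher in NOTCH1-labelled and the 24.4% in MCF10A cells. Of 12 tRNA synthetase genes linked to ATF4, 5 were at least 2-fold higher in NOTCH1-labelled and 2 in MCF10A cells, with medians of 0.93 and 0.41. GARS, for glycine, was at 206 FPKM with ginkgolic acid and 48.7 FPKM with DMSO in NOTCH1-labelled cells and at 162 (ginkgolic acid) and 47.2 FPKM (DMSO) in MCF10A cells, and YARS, for tyrosine, at 211 (ginkgolic acid) and 69.8 FPKM (DMSO) in NOTCH1-labelled and at 126 (ginkgolic acid) and 50.1 FPKM (DMSO) in MCF10A cells. Of 7 measured other cytosolic synthetase genes, 1 was at least 2-fold higher in NOTCH1-labelled and 0 in MCF10A cells, with medians of 0.42 and -0.01. KARS was at 293 (ginkgolic acid) and 157 FPKM (DMSO) in NOTCH1-labelled and at 147 (ginkgolic acid) and 138 FPKM (DMSO) in MCF10A cells, and QARS at 233 (ginkgolic acid) and 219 FPKM (DMSO) in NOTCH1-labelled and at 193 (ginkgolic acid) and 258 FPKM (DMSO) in MCF10A cells.

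Amino acid transporter genes linked to ATF4 were at least 2-fold higher in 3 of 9 cases in NOTCH1-labelled and in 1 of 9 in MCF10A cells, where 1 was lower. The MCF10A share is below the 24.4% of all genes. SLC7A5, counted among the 9, holds the microRNA MIR6775. It was listed at 129311 (ginkgolic acid) and 107451 FPKM (DMSO) in NOTCH1-labelled and at 116509 (ginkgolic acid) and 91194 FPKM (DMSO) in MCF10A cells. The share of its reads that comes from that microRNA was not tested, so its ratios under 2-fold are uncertain. SLC7A11, the cystine importer, was at 31.5 FPKM with ginkgolic acid and 2.73 FPKM with DMSO in NOTCH1-labelled cells and at 6.77 (ginkgolic acid) and 4.88 FPKM (DMSO) in MCF10A cells. SLC1A4, a neutral amino acid carrier, was at 3.41 (ginkgolic acid) and 0.482 FPKM (DMSO) in NOTCH1-labelled and at 2.74 (ginkgolic acid) and 1.16 FPKM (DMSO) in MCF10A cells. Of 8 measured CHOP-linked genes, 3 were at least 2-fold higher in each line. Over all genes 18.9% were higher in NOTCH1-labelled and 24.4% in MCF10A cells. TRIB1 and SQSTM1 were higher in both lines. The remaining gene was BBC3 in NOTCH1-labelled cells and CA6 in MCF10A, where CA6 was under 1 FPKM with DMSO. SQSTM1, an autophagy receptor that NRF2 also drives, was at 856 (ginkgolic acid) and 126 FPKM (DMSO) in NOTCH1-labelled and at 516 (ginkgolic acid) and 115 FPKM (DMSO) in MCF10A cells, and TRIB1, a relative of TRIB3, at 16.9 (ginkgolic acid) and 2.67 FPKM (DMSO) in NOTCH1-labelled and at 7.74 (ginkgolic acid) and 1.97 FPKM (DMSO) in MCF10A cells.

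The ATF6 and XBP1 branches of the unfolded protein response had 6 of 16 measured genes at least 2-fold higher in each line. The medians were 0.82 in NOTCH1-labelled and 0.23 in MCF10A cells, where 18.9% and 24.4% of all genes were higher. DNAJB9, HERPUD1, HSPA5 and SEC24D were higher in both lines, and the others differed between the lines. DNAJB9, a chaperone partner, was at 328 FPKM with ginkgolic acid and 22.4 FPKM with DMSO in NOTCH1-labelled cells and at 217 (ginkgolic acid) and 47.6 FPKM (DMSO) in MCF10A cells. HERPUD1, of protein degradation at the endoplasmic reticulum, was at 360 (ginkgolic acid) and 25.6 FPKM (DMSO) in NOTCH1-labelled and at 173 (ginkgolic acid) and 18.2 FPKM (DMSO) in MCF10A cells, and HSPA5 (BiP), the main chaperone of that compartment, at 253 (ginkgolic acid) and 30.7 FPKM (DMSO) in NOTCH1-labelled and at 102 (ginkgolic acid) and 22.2 FPKM (DMSO) in MCF10A cells. SEC24D, of transport vesicle coats, was at 26.4 (ginkgolic acid) and 7.19 FPKM (DMSO) in NOTCH1-labelled and at 21.1 (ginkgolic acid) and 2.31 FPKM (DMSO) in MCF10A cells. XBP1 shares its row with an unnamed transcript, at 288 (ginkgolic acid) and 44.9 FPKM (DMSO) in NOTCH1-labelled and at 203 (ginkgolic acid) and 52.8 FPKM (DMSO) in MCF10A cells.

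Other genes of eIF2 and of its exchange factor eIF2B were mostly within 2-fold, with 1 of 10 at least 2-fold higher in each line and 1 lower in MCF10A, a share of higher genes under that of all genes in both lines. The higher one was EIF2B2, at 22.6 FPKM with ginkgolic acid and 11.2 FPKM with DMSO in NOTCH1-labelled cells and at 14.4 (ginkgolic acid) and 7.19 FPKM (DMSO) in MCF10A cells. DNAJC3, of the upstream sensing list, has several rows in NOTCH1-labelled cells and was not counted there. Those rows had log2 ratios of 1.15 and 1.23, both above 2-fold, and its ratio in MCF10A was 0.68. Genes of upstream sensing with a single row of their own had 0 of 6 beyond 2-fold in NOTCH1-labelled and 0 of 7 in MCF10A cells. Among them, PPP1CC, a catalytic subunit of protein phosphatase 1, was at 259 (ginkgolic acid) and 190 FPKM (DMSO) in NOTCH1-labelled and at 158 (ginkgolic acid) and 129 FPKM (DMSO) in MCF10A cells, and IMPACT, an inhibitor of GCN2, at 100.0 (ginkgolic acid) and 86.8 FPKM (DMSO) in NOTCH1-labelled and at 73.7 (ginkgolic acid) and 58.1 FPKM (DMSO) in MCF10A cells. Mitochondrial chaperones and proteases had 0 of 7 beyond 2-fold in either line. HSPD1 was at 977 (ginkgolic acid) and 492 FPKM (DMSO) in NOTCH1-labelled and at 505 (ginkgolic acid) and 443 FPKM (DMSO) in MCF10A cells, and HSPA9 at 1068 (ginkgolic acid) and 1234 FPKM (DMSO) in NOTCH1-labelled and at 873 (ginkgolic acid) and 991 FPKM (DMSO) in MCF10A cells. These are bulk RNA values, so a higher level in all cells and a much higher level in some cells cannot be told apart.

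**Figure D4:**
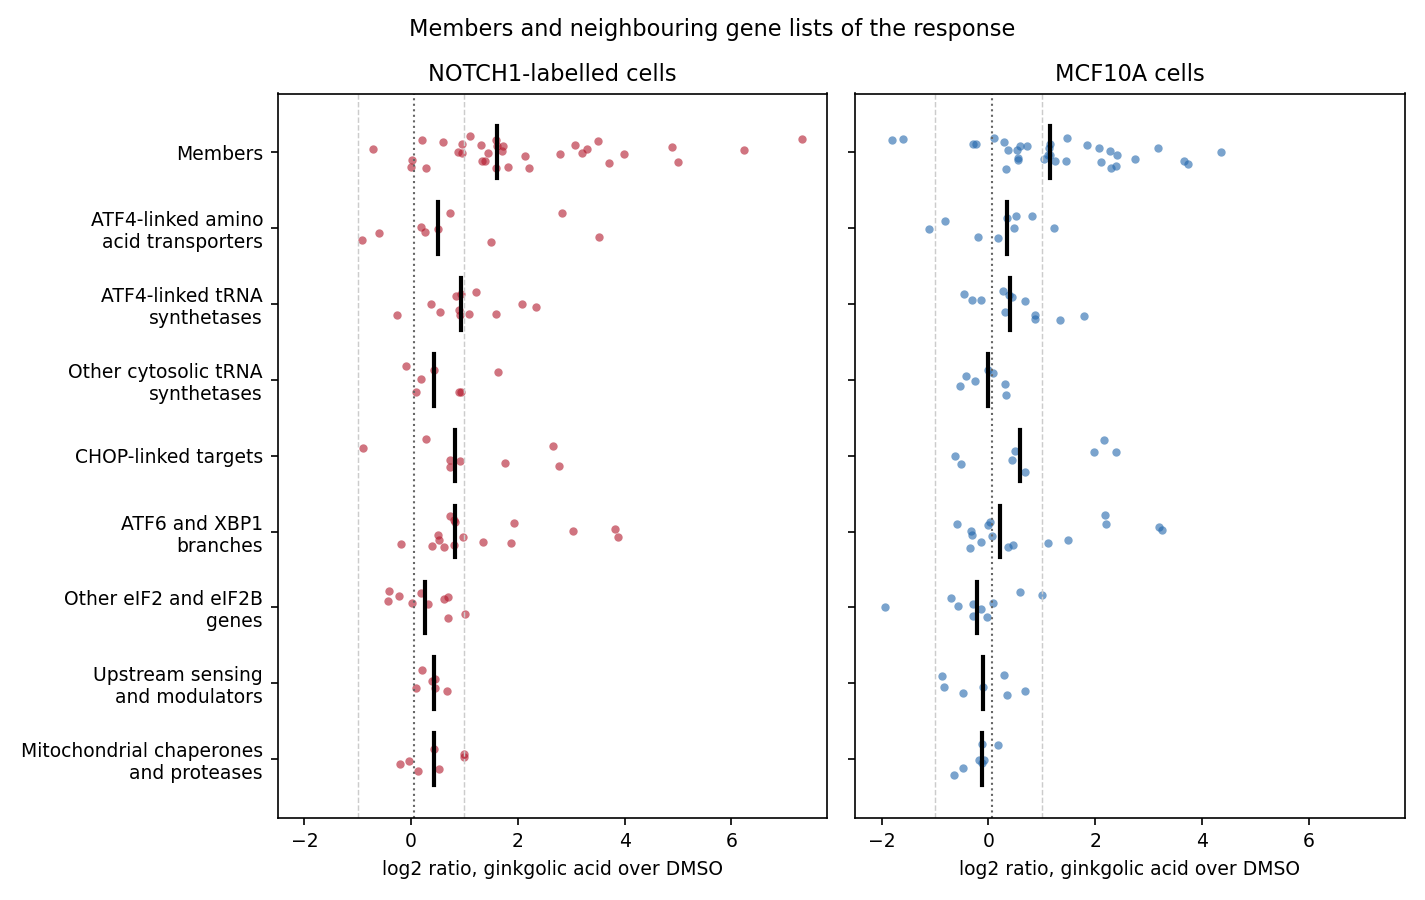
Log2 ratio of ginkgolic acid over DMSO for each measured gene of the members and of 8 neighbouring lists in NOTCH1-labelled (left) and MCF10A cells (right), with the list median (black bar), the median of all measured genes (dotted) and 2-fold (dashed). The members' medians of 1.61 and 1.15 lie to the right of 1, and those of the other lists lie between -0.22 and 0.93.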

How the data were processed

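The submitters' processing notes name Bowtie2 2.1.0 and TopHat2 2.0.8b, Cuffdiff 2.1.1, Cufflinks 2.1.1 and GRCh37 (hg19). Which annotation and settings were used, and how the 2 samples of each group were merged, is not given in the sources used here. Per the file headers, the authors deposited FPKM in 2 tables, with 1 value for each gene and treatment.

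Left out were rows without a gene name, rows that join several genes, small RNAs, loci under 200 bases, other contigs, and symbols with several rows. Genes that reached 1 FPKM with either treatment, and were not at 0 in the other, were taken as measured. Log2 ratios of the deposited values, ginkgolic acid over DMSO, had no pseudocount. The arithmetic of the ratios was checked on simulated data without noise, which says nothing on the spread of real values. No test, SD or interval could be had, so a 2-fold size rule took their place. GENCODE release 29 gave gene lengths, overlapping genes and small RNAs held, not positions.

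The members and lists were chosen with earlier results of these data known. Named were all 37 members and, per list, up to 5 genes at least 2-fold apart in the same direction in both lines and any at least 2-fold apart in opposite directions, or, where a list had none, the 2 of highest mean FPKM, with EIF2AK2, SLC7A11, HSPA5, HERPUD1, XBP1, SQSTM1 and NOTCH1 whatever their values. A few other genes are named where they bear on a count or on the row of a member. Promoters shown were the 4 with a TGATGNAA match and the highest mean log2 ratio. Other settings are given with the closing results. Python 3.11.15, numpy 2.4.6, pandas 2.3.3 and matplotlib 3.10.9 were used.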

Additional observations from a re-analysis of the deposited data

Results flagged for a closer look

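EIF2AK3, the gene of the kinase PERK, had log2 ratios of opposite sign in the lines, 1.81 in NOTCH1-labelled and -0.24 in MCF10A cells, a difference of 2.05. PSPH, the final enzyme of serine synthesis, did so with 0.59 and -1.59, a difference of 2.18. The B cell marker MS4A1, from the list of other cell types, was at 1.54 FPKM with ginkgolic acid and 3.28 FPKM with DMSO in NOTCH1-labelled cells and at 1.28 (ginkgolic acid) and 0.346 FPKM (DMSO) in MCF10A cells, a difference of -2.98. These differences were not tested, since each group has 1 value.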

How the results depend on the processing

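No paired analysis was possible because the tables hold 1 value per group and none per sample, and for the same reason no replicate could be left out. No member shares a row with another gene, so adding joined rows gives no other value. The counts of members at least 2-fold higher were between 22 and 24 in NOTCH1-labelled and between 16 and 23 in MCF10A cells under all settings but 1. That setting, chosen after seeing the data, left out members with a deposited locus over 1.5 times the gene length and gave 19 and 17. The median in MCF10A fell under 2-fold, to 0.99, with a pseudocount of 1 FPKM. Members lower in NOTCH1-labelled cells were 0, and 1 with no minimum. Members lower in MCF10A were 2, and 1 with a minimum of 5 FPKM, without members that hold a small RNA, or without wide loci. Members with a difference between lines of at most -1 were 2, with 5 under no minimum, 0 under a minimum of 5 FPKM, and 1 with a pseudocount of 1 FPKM or without members that hold a small RNA. Of 738 values of single members, 725 kept their direction and side of 2-fold, 10 came under 2-fold and 3 small ones changed sign, under a pseudocount of 1 FPKM or removal of the median gene, the middle log2 ratio among genes reaching 1 FPKM with both treatments (0.14 in NOTCH1-labelled, -0.11 in MCF10A). Over all genes, a minimum of 5 FPKM gave 1929 higher and 919 lower in NOTCH1-labelled cells in place of 3694 and 3685, and 1164 and 1566 in MCF10A in place of 4302 and 2687. The cause of these shifts was not tested. A further setting chosen after seeing the data, at least 1 FPKM in both groups, gave 23 and 19 higher members.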

Other observations

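Some genes of the neighbouring lists fall outside the naming rule and were chosen after their values were seen. EIF2B1, the regulatory alpha subunit of eIF2B, was at 20.9 FPKM with ginkgolic acid and 28.2 FPKM with DMSO in NOTCH1-labelled cells and at 10.5 (ginkgolic acid) and 40.3 FPKM (DMSO) in MCF10A cells, the only lower gene of its list there. AARS, the alanine tRNA synthetase gene, was at 107 (ginkgolic acid) and 21.2 FPKM (DMSO) in NOTCH1-labelled and at 71.2 (ginkgolic acid) and 38.9 FPKM (DMSO) in MCF10A cells. EDEM1, which sends misfolded glycoproteins to degradation, was at 29.4 (ginkgolic acid) and 7.72 FPKM (DMSO) in NOTCH1-labelled and at 5.40 (ginkgolic acid) and 6.66 FPKM (DMSO) in MCF10A cells. The differences between the lines were not tested.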
